A study of Homo sapiens with 12 samples.

Results

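The Toll-like receptor genes TLR1, TLR2, TLR4, TLR5, TLR6, TLR8 and TLR9 were examined together with MYD88, CD14 and LY96 in HL60 cells. The 10 genes were taken by name from a table of raw gene counts that holds 59251 genes. The rule uses no measured value, but the genes and the lists below were chosen with earlier results of these data known. Toll-like receptors are single-pass membrane proteins that recognise conserved microbial molecules and are a hallmark of granulocytes, monocytes and macrophages. TLR1, TLR2, TLR4, TLR5 and TLR6 act at the cell surface, where TLR2 pairs with TLR1 or TLR6 to bind lipoproteins, TLR4 binds lipopolysaccharide together with the secreted protein MD-2 (encoded by LY96), and CD14 passes lipopolysaccharide on to that complex. TLR8 and TLR9 act in endosomes, where they bind single-stranded RNA and DNA rich in unmethylated CpG. MYD88 is the cytoplasmic adaptor that all of these receptors use to reach the IRAK kinases, TRAF6 and NF-κB.

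HL60 is a PML-RARA-negative human acute myeloid leukemia line, and every group was grown in RPMI1640 with FBS. The 4 groups were non-treated cells and cells given 1 µM all-trans retinoic acid (ATRA), 1 µM palbociclib, which inhibits CDK4/6 (CDK4/6i), or both drugs (CDK4/6i+ATRA), with 48 h of exposure. Each group had 3 RNA-Seq libraries, which the labels call biological replicates of this 1 line without naming separate cultures. For its gene set scores, the study states 3 independent experiments. P-values measure the spread between these libraries. The comparisons ask how each drug, alone or added to the other, moved the receptor genes, and whether the drugs together departed from the sum of their separate effects.

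Total counts per library ranged from 12230923 to 18679544, and those of CDK4/6i+ATRA were smaller than all others (12230923 to 14415276). Levels are given as CPM after TMM normalization, and 3 counts, the most that a count of 0 allows, correspond to 0.161 to 0.245 CPM by library size. These limits and all counting intervals cover counting error only, since such reads carry no molecular identifiers and need not stem from independent molecules. As a check of the cell type, the promyelocyte-like marker MPO of non-treated cells stood at 6517 CPM ± 168 (SD, n = 3) and their CTSG at 14.0 CPM ± 2.42, whereas ELANE, AZU1 and PRTN3, which the table also lists on an alternate contig of the genome, had 0 counts in every library. Summed over the 5 genes, this list ranged from 6347 to 6681 CPM in non-treated cells, from 269 to 323 CPM under ATRA, from 3417 to 3545 CPM under CDK4/6i and from 25.2 to 34.6 CPM under CDK4/6i+ATRA. The sum of 6 myeloid maturation genes (ITGAM, CD38, NCF1, CYBB, FPR1 and CSF3R) went the other way, from 216 to 229 CPM in non-treated cells to 4542 to 4659, 639 to 671 and 5685 to 5928 CPM under ATRA, CDK4/6i and CDK4/6i+ATRA. Sums of T cell, erythroid and epithelial markers stayed at or below 3.12 CPM in every library. Those of B cell markers ranged from 13.1 to 25.3 CPM, mostly CD79A. Platelet marker sums were 1.62 to 2.76 CPM in non-treated cells and 2.82 to 3.38 CPM under ATRA. They were 6.85 to 8.62 CPM under CDK4/6i and 8.20 to 10.2 CPM under CDK4/6i+ATRA. The part of these shifts in the values of the receptor genes was not tested.

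Of the 10 genes, 8 had an entry in the RefSeq promoter table (GRCh38.p14), which was read for the 250 bases before each start, and TLR1 and LY96 had none. The 5 windows printed here belong to genes called in all 3 comparisons with non-treated cells, and they carry matches to sequences known to be bound by myeloid transcription factors. The motifs searched, on both strands, were the PU.1 core GAGGAA, the C/EBP sequence TTGCNNAA, the retinoid receptor half-site AGGTCA and an NF-κB consensus. Capitals mark the matches, which do not overlap one another: the PU.1 core or its reverse complement in TLR4, TLR6, TLR9 and MYD88, and the C/EBP sequence on the reverse strand in TLR8. The windows lie at chr9:117704153-117704402 on the + strand (TLR4), chr4:38856818-38857067 on the - strand (TLR6), chrX:12906370-12906619 on the + strand (TLR8), chr3:52225646-52225895 on the - strand (TLR9) and chr3:38138411-38138660 on the + strand (MYD88). The TLR6 window lies between exons of a longer TLR6 transcript in the deposited annotation.
TLR4: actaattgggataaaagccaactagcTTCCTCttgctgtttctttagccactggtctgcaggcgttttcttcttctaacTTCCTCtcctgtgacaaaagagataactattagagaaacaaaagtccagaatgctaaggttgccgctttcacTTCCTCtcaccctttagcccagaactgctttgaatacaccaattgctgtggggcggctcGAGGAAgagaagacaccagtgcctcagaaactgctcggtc
TLR6: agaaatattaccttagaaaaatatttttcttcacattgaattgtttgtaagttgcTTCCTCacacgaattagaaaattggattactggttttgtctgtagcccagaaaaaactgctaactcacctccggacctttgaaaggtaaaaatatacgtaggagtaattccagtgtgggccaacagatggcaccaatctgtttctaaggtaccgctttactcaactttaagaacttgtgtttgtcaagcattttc
TLR8: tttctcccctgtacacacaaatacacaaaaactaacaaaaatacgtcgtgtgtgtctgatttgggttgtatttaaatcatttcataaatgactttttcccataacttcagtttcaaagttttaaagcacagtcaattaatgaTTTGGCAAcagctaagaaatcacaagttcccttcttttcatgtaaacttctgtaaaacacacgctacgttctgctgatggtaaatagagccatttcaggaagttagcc
TLR9: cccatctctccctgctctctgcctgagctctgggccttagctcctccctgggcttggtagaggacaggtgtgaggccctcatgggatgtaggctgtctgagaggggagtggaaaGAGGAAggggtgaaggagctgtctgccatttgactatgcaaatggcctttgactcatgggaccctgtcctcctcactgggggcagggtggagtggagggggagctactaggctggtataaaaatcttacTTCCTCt
MYD88: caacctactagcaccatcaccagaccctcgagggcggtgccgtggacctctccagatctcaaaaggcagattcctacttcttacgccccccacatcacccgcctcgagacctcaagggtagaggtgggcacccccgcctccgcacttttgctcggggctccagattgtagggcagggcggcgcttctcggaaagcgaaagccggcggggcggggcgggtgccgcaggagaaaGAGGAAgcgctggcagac
TLR4 held 4 PU.1 cores, which begin at positions -224, -171, -99 and -40 relative to the start, TLR9 held 2 (-136 and -7), and TLR6 and MYD88 held 1 each (-195 and -18). Among all 27305 promoter windows of this length, 23.4% held the PU.1 core, 9.13% the C/EBP sequence, 12.1% the retinoid half-site and 5.08% the NF-κB consensus. CD14 also held 1 PU.1 core, in a window that lies inside the span of the gene in the deposited annotation, TLR2 and TLR5 held none of the motifs, and the retinoid half-site and the NF-κB consensus were in none of the 8 windows. The windows of TLR8 and TLR6 were AT-rich, with a GC content of 34.8% and 36.4%, against 56.8% for TLR9, 64.4% for MYD88, 72.4% for TLR2 and a median of 58% over all windows. A match describes letters only and is not a measured binding site.

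Of the 10 genes, 8 passed the expression filter and were tested, whereas CD14 and TLR5 did not. TLR8 and LY96 did not pass it in the non-treated libraries alone, so they were tested through the treated groups, where they are higher, and counts are also given without them. Calls rest on an adjusted p under 0.05 in the quasi-likelihood test of edgeR, where Benjamini-Hochberg adjustment ran over all 13318 genes tested (hereafter the edgeR adjusted p). With ATRA, 6 of the 8 were called higher and 1 lower (TLR9), where 67.6% of all genes tested were called, 32.1% higher and 35.5% lower. With CDK4/6i, the split was again 6 higher and 1 lower, against 56.2% of all genes called (28.3% higher, 27.9% lower). With CDK4/6i+ATRA, 7 were called higher and 1 lower against the non-treated group, against 81.7% of all genes (41% higher, 40.7% lower). Libraries did not overlap those of non-treated cells for 6 higher and 1 lower gene under ATRA (33.3% and 37% of all genes tested), 6 and 1 under CDK4/6i (30.8% and 29.9%) and 7 and 1 under both drugs (41.1% and 40.8%). Among the 6 genes that passed in non-treated libraries alone, 4 were higher and 1 lower under ATRA, 4 and 1 under CDK4/6i and 5 and 1 under CDK4/6i+ATRA. Of the 11455 genes that passed there, 30% were higher and 40.7% lower under ATRA, 29.6% and 32% under CDK4/6i and 38.1% and 46.3% under CDK4/6i+ATRA. The higher call of LY96 under CDK4/6i was lost when any 1 of 4 libraries was left out. The median log2 fold change of the 8 genes was 2.34 under ATRA, 1.44 under CDK4/6i and 4.30 under CDK4/6i+ATRA, that of the 6 was 1.79, 0.93 and 2.38, and that of all genes tested was -0.03, 0.02 and 0.02.

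**Figure D1:**
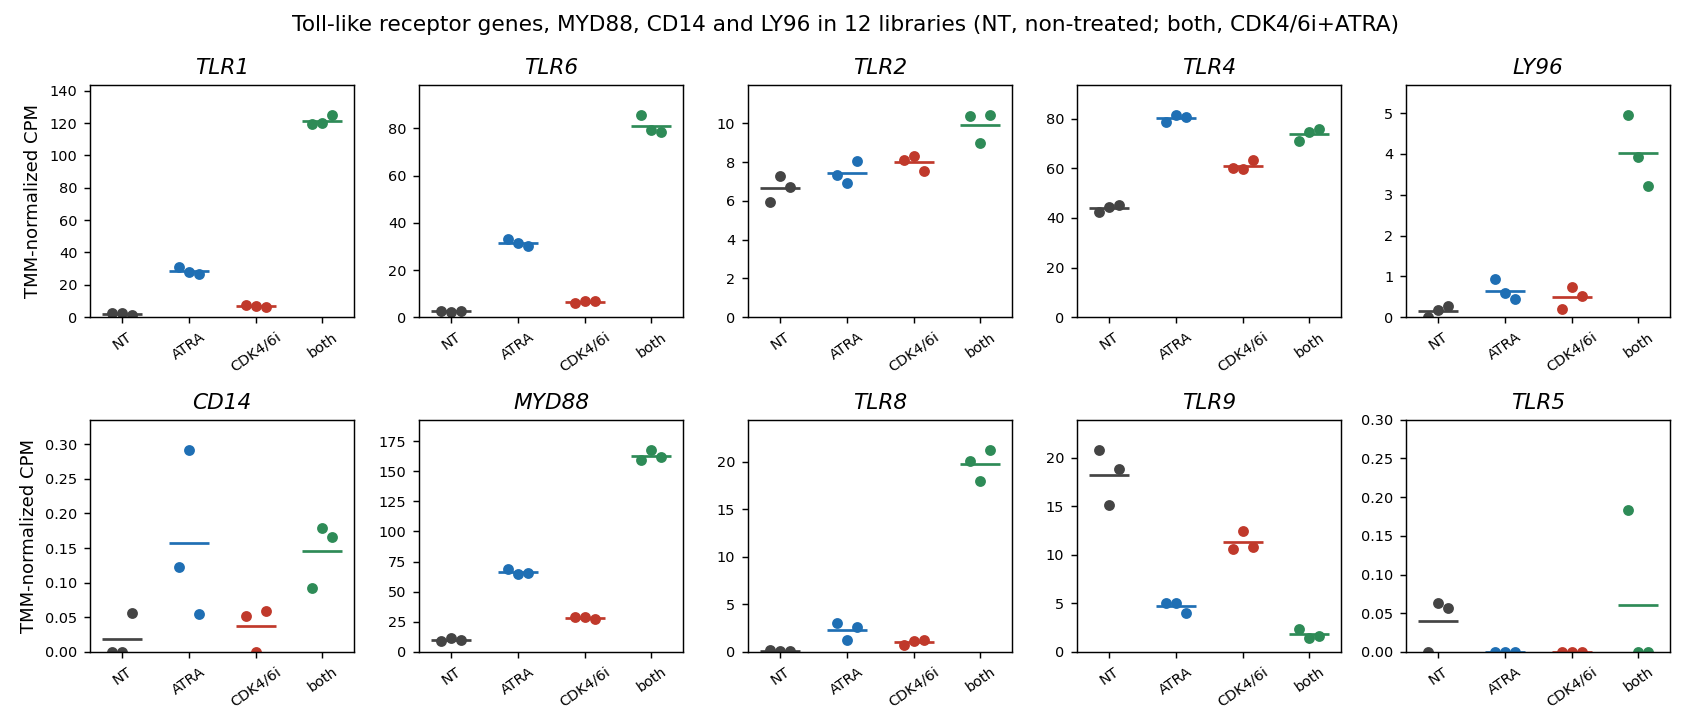
TMM-normalized CPM (linear y axes, each with its own range) of the 10 genes in each of the 12 libraries, with points for libraries and a line at the mean of each group of 3. TLR1, TLR6, TLR8, LY96 and MYD88 are highest under CDK4/6i+ATRA, TLR9 is highest in non-treated cells, and CD14 and TLR5 stay at 0.292 CPM or less in every library.

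TLR1 and TLR6, the partners of TLR2, were low in non-treated cells and rose with each drug, most with both. The 2 genes are neighbours on the minus strand of chromosome 4 (hg38), TLR1 at chr4:38787569-38805644 with 7 exon intervals and TLR6 at chr4:38822897-38868390 with 7. TLR1 was 2.52, 2.38 and 1.63 CPM in the 3 non-treated libraries, 31.2, 27.9 and 26.7 CPM under ATRA, 7.36, 6.84 and 6.14 CPM under CDK4/6i and 119.7, 120.2 and 124.9 CPM under CDK4/6i+ATRA. The groups of libraries did not overlap, in the order non-treated, CDK4/6i, ATRA, CDK4/6i+ATRA. Against non-treated cells, the log2 fold change of TLR1 was 3.71 under ATRA (SE 0.151, edgeR adjusted p = 8.33e-32), 1.65 under CDK4/6i (SE 0.165, 3.48e-13) and 5.81 under CDK4/6i+ATRA (SE 0.148, 4.59e-44), a 55.9-fold rise. In this bulk RNA, more cells that express a gene and more RNA per cell cannot be told apart.

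TLR6 followed the same order, with 2.46, 2.32 and 2.76 CPM in non-treated cells, 33.1, 31.5 and 30.3 CPM under ATRA, 6.17, 6.91 and 6.79 CPM under CDK4/6i and 85.6, 79.3 and 78.6 CPM under CDK4/6i+ATRA. Again no library of 1 group reached those of another. Its log2 fold change was 3.64 under ATRA (SE 0.135, edgeR adjusted p = 6.01e-33), 1.39 under CDK4/6i (SE 0.150, 7.3e-12) and 5.0 under CDK4/6i+ATRA (SE 0.134, 2.52e-41). Per kb of exon, the ratio of the TLR1 to the TLR6 level was 0.765 ± 0.218 (SD, n = 3) in non-treated cells, 0.784 ± 0.0300 under ATRA, 0.895 ± 0.128 under CDK4/6i and 1.3 ± 0.0834 under CDK4/6i+ATRA. In the last group each library had more TLR1 than TLR6, by ratios of 1.21 to 1.38, and its range lay above that of every other group. The 2 genes share little exact sequence, since 119 of the 9349 exon windows of 100 bases in TLR1 (1.27%) and 119 of 8026 in TLR6 (1.48%) occur in the other gene. On the opposite strand, TLR6 overlaps FAM114A1, with 2 counts in total, and MIR574, with none, against 4876 for TLR6.

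TLR2, the common partner, hardly moved by comparison. It lies at chr4:153684280-153710637 on the plus strand with 3 exon intervals, and shares 330 exon bases with RNF175 on the opposite strand, with 2 counts in total against 1479 for TLR2. TLR2 stood at 5.95, 7.27 and 6.70 CPM in non-treated cells, 7.33, 6.94 and 8.07 CPM under ATRA, 8.09, 8.31 and 7.55 CPM under CDK4/6i and 10.4, 9.0 and 10.4 CPM under CDK4/6i+ATRA. The ATRA and CDK4/6i libraries overlapped each other, the ATRA libraries also overlapped non-treated ones, and the CDK4/6i+ATRA libraries lay above the rest. The log2 fold change was 0.17 under ATRA (95% interval -0.098 to 0.433, edgeR adjusted p = 0.262) and 0.27 under CDK4/6i (95% interval 0.0046 to 0.528, 0.0771), neither of which was called, and 0.58 under CDK4/6i+ATRA (SE 0.134, 0.000122). Per kb of exon, TLR1 was 0.416 ± 0.113 (SD, n = 3) times the TLR2 level in non-treated cells, 1.06 ± 0.0665 under CDK4/6i, 4.84 ± 0.616 under ATRA and 15.4 ± 1.17 under CDK4/6i+ATRA. TLR6 relative to TLR2 went from 0.550 ± 0.0783 to 1.20 ± 0.0984, 6.16 ± 0.647 and 11.8 ± 0.915 in the same order, so that TLR2 was the most abundant transcript of the 3 in non-treated cells and the least abundant under CDK4/6i+ATRA.

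TLR4, the lipopolysaccharide receptor, was among the more abundant members in non-treated cells and was higher in every treated group, most under ATRA alone. It lies at chr9:117704403-117724735 on the plus strand with 4 exon intervals, and RNU6-1082P within its span on the opposite strand had no count. Its level was 42.5, 44.2 and 45.2 CPM in non-treated cells, 78.6, 81.4 and 80.7 CPM under ATRA, 60.2, 59.6 and 63.4 CPM under CDK4/6i and 70.9, 74.6 and 75.7 CPM under CDK4/6i+ATRA. The groups did not overlap, and the CDK4/6i+ATRA libraries fell between those of the single drugs. Against non-treated cells, the log2 fold change was 0.87 under ATRA (SE 0.0507, edgeR adjusted p = 7.37e-21), 0.47 under CDK4/6i (SE 0.0519, 4.34e-11) and 0.75 under CDK4/6i+ATRA (SE 0.0534, 8.2e-18).

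LY96, which encodes the MD-2 subunit that TLR4 needs to bind lipopolysaccharide, was near the detection limit except with both drugs. Its counts were 0, 3 and 5 in non-treated cells, 15, 10 and 8 under ATRA, 4, 12 and 9 under CDK4/6i and 54, 44 and 39 under CDK4/6i+ATRA. The genes RNU6-1197P, RNU6-1300P and RPS3AP32, which lie within the LY96 span, had no count. In CPM the LY96 means were 0.157 ± 0.143 (SD, n = 3), 0.650 ± 0.248, 0.489 ± 0.265 and 4.03 ± 0.869. The CDK4/6i+ATRA libraries lay well above all others, the ATRA libraries lay above non-treated ones, and the CDK4/6i libraries overlapped both. The log2 fold change was 4.59 under CDK4/6i+ATRA (SE 0.645, edgeR adjusted p = 2.26e-12) and 1.97 under ATRA (SE 0.692, 0.00435), which ranged from 4.03 to 5.32 and from 1.41 to 2.7 (edgeR adjusted p up to 0.0431) with 1 library left out, highest without non-treated replicate 3. With only 8 counts in the non-treated group, the pooled ratio under CDK4/6i+ATRA was 25.2 (95% exact interval 12.4 to 59.5). The CDK4/6i value of 1.54 (SE 0.711, edgeR adjusted p = 0.0397) lost its call without non-treated replicate 1 (0.208), non-treated replicate 2 (0.061), CDK4/6i replicate 2 (0.204) or CDK4/6i replicate 3 (0.0861), and it ranged from 0.98 without non-treated replicate 1 to 2.28 without non-treated replicate 3. Per kb of exon, LY96 reached 0.230 ± 0.0578 (SD, n = 3) of the TLR4 level under CDK4/6i+ATRA, against 0.0146 ± 0.0133 in non-treated cells, 0.0340 ± 0.0136 under ATRA and 0.0336 ± 0.0186 under CDK4/6i.

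CD14, the lipopolysaccharide co-receptor and a standard surface marker of monocytes, was at the limit of detection in every group. It lies at chr5:140631732-140633701 on the minus strand, inside the span of TMCO6 on the opposite strand, with which it shares no exon bases. CD14 had 0, 0 and 1 counts in non-treated cells, 2, 5 and 1 under ATRA, 1, 0 and 1 under CDK4/6i and 1, 2 and 2 under CDK4/6i+ATRA. In counts, each treated group had a library at the 1 count of the highest non-treated library or below it. The pooled ratio to the 1 count of non-treated cells was 7.82 under ATRA (95% exact interval 1.05 to 347), 1.91 under CDK4/6i (0.0994 to 113) and 7.35 under CDK4/6i+ATRA (0.823 to 348), where the intervals cover counting error and not the spread between libraries. Without an expression filter, edgeR's quasi-likelihood test called none of its 6 comparisons, with adjusted p from 0.212 to 1 and the lowest unadjusted p at 0.084. Among other monocyte and macrophage markers, CSF1R, the receptor of macrophage colony-stimulating factor, had a mean of 0.261 ± 0.297 CPM (SD, n = 3) in non-treated cells, 3.95 ± 0.549 CPM under ATRA, 0.111 ± 0.0475 CPM under CDK4/6i and 9.80 ± 1.72 CPM under CDK4/6i+ATRA. CD163, MRC1, FCGR3A and VCAN had 0 to 4 counts in every library, and CD163 had 0 counts in all drug-treated libraries. The part of monocyte-marker RNA in the values of the receptor genes was not tested.

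TLR5, the receptor for bacterial flagellin (chr1:223109404-223143248, minus strand, 6 exon intervals), was not detectable at this depth. It had 0, 1 and 1 counts in non-treated cells, 0 in all ATRA and CDK4/6i libraries, and 2, 0 and 0 under CDK4/6i+ATRA. All of these are at or under the limit of 3 counts, so no fold is given. Without an expression filter, edgeR's quasi-likelihood test gave adjusted p from 0.195 to 0.966 and unadjusted p of 0.0562 or more. Of the remaining receptors of the family, TLR7 had no count in any library, TLR3 had 6, 7 and 9 counts under ATRA and at most 2 elsewhere, and TLR10 had at most 6.

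TLR8 and TLR9, the endosomal receptors, moved in opposite directions. TLR8 (chrX:12906620-12923169, plus strand, 3 exon intervals) gave 3, 2 and 1 counts in non-treated cells, 50, 21 and 47 under ATRA, 14, 18 and 21 under CDK4/6i and 219, 202 and 257 under CDK4/6i+ATRA. In CPM the means were 0.121 ± 0.0621 (SD, n = 3), 2.30 ± 0.963, 1.02 ± 0.261 and 19.8 ± 1.64. All treated libraries lay above the non-treated ones, the ATRA and CDK4/6i libraries overlapped at their ends, and the CDK4/6i+ATRA libraries lay far above. With 6 counts in the non-treated group, the pooled ratio was 166 under CDK4/6i+ATRA (95% exact interval 76.0 to 454), 19.2 under ATRA (8.58 to 53.5) and 8.43 under CDK4/6i (3.63 to 24.0). The fitted log2 fold changes were 7.28 (SE 0.678, edgeR adjusted p = 6.11e-27), 4.18 (SE 0.692, 1.77e-11) and 3.00 (SE 0.711, 5.77e-06). TLR8 lies within the span of TLR8-AS1 on the opposite strand, with 5 counts in total against 855 for TLR8, and they share no exon bases.

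TLR9 (chr3:52221080-52225645, minus strand, 2 exon intervals) was the 1 tested member that fell against non-treated cells. It stood at 20.8, 15.1 and 18.8 CPM in non-treated cells, 4.99, 5.07 and 4.03 CPM under ATRA, 10.6, 12.5 and 10.8 CPM under CDK4/6i and 2.38, 1.43 and 1.65 CPM under CDK4/6i+ATRA. The 4 groups did not overlap, and their order was the reverse of that of TLR1 and TLR6. On the log2 scale it fell by 1.96 under ATRA (SE 0.138, edgeR adjusted p = 1.66e-18), by 0.69 under CDK4/6i (SE 0.114, 7.63e-07) and by 3.33 under CDK4/6i+ATRA (SE 0.220, 6.69e-23), a 10.0-fold decrease. Per kb of exon, the ratio of TLR8 to TLR9 went from 0.00512 ± 0.00245 (SD, n = 3) in non-treated cells to 0.0693 ± 0.0175 under CDK4/6i, 0.386 ± 0.173 under ATRA and 8.70 ± 1.92 under CDK4/6i+ATRA.

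MYD88, the adaptor shared by these receptors (chr3:38138661-38143022, plus strand, 6 exon intervals), rose with each drug and most with both. Its level was 8.71, 11.4 and 10.1 CPM in non-treated cells, 68.9, 64.7 and 65.8 CPM under ATRA, 28.7, 29.0 and 27.7 CPM under CDK4/6i and 159, 168 and 162 CPM under CDK4/6i+ATRA. The groups did not overlap. The log2 fold change was 2.72 under ATRA (SE 0.0771, edgeR adjusted p = 1.43e-35), 1.5 under CDK4/6i (SE 0.0817, 2.74e-22) and 4.01 under CDK4/6i+ATRA (SE 0.0756, 1.04e-44). Per kb of exon, MYD88 was 1.08 ± 0.126 (SD, n = 3) times the TLR4 level in non-treated cells and 10.4 ± 0.304 times that level under CDK4/6i+ATRA.

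**Figure D2:**
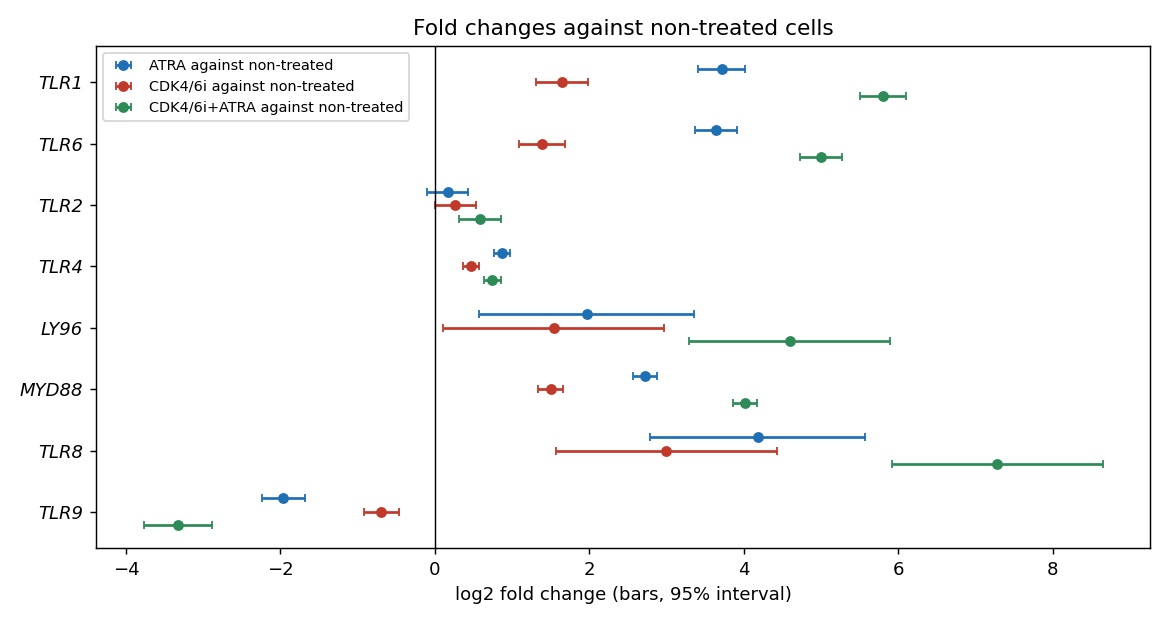
Log2 fold change of the 8 tested genes against non-treated cells (x axis), with 95% intervals as bars and 1 colour for each treated group. TLR9 lies left of 0 in all 3 comparisons, TLR2 stays within 1 of 0, and TLR1, TLR6, TLR8, LY96 and MYD88 lie furthest right under CDK4/6i+ATRA.

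Per kb of exon, the order of the members changed with treatment. This order rests on the deposited exon lengths, such as 12797 bases for TLR4 and 3352 for TLR9. In CPM, TLR4 (44.0) lay above TLR9 (18.2) in non-treated cells. Which part of each length these cells use was not tested. The values that follow are per kb. In non-treated cells TLR9 was the most abundant (5.44 ± 0.860 CPM per kb, SD, n = 3), followed by MYD88 (3.71 ± 0.496), TLR4 (3.44 ± 0.108), TLR2 (0.533 ± 0.0533), TLR6 (0.291 ± 0.0259), TLR1 (0.219 ± 0.0481), LY96 (0.0512 ± 0.0469) and TLR8 (0.0277 ± 0.0143). In this order MYD88 overlapped with TLR4, and LY96 with TLR8. With CDK4/6i+ATRA the order became MYD88 (59.8 ± 1.60), TLR1 (12.2 ± 0.287), TLR6 (9.39 ± 0.446), TLR4 (5.76 ± 0.199), TLR8 (4.54 ± 0.376), LY96 (1.32 ± 0.284), TLR2 (0.796 ± 0.0640) and TLR9 (0.543 ± 0.149), and no neighbours overlapped. With ATRA the order was MYD88, TLR4, TLR6, TLR1, TLR9, TLR2, TLR8 and LY96, where TLR8 overlapped with both of its neighbours. With CDK4/6i it was MYD88, TLR4, TLR9, TLR6, TLR1, TLR2, TLR8 and LY96, where TLR1 overlapped with both TLR6 and TLR2, and TLR8 with LY96.

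**Figure D3:**
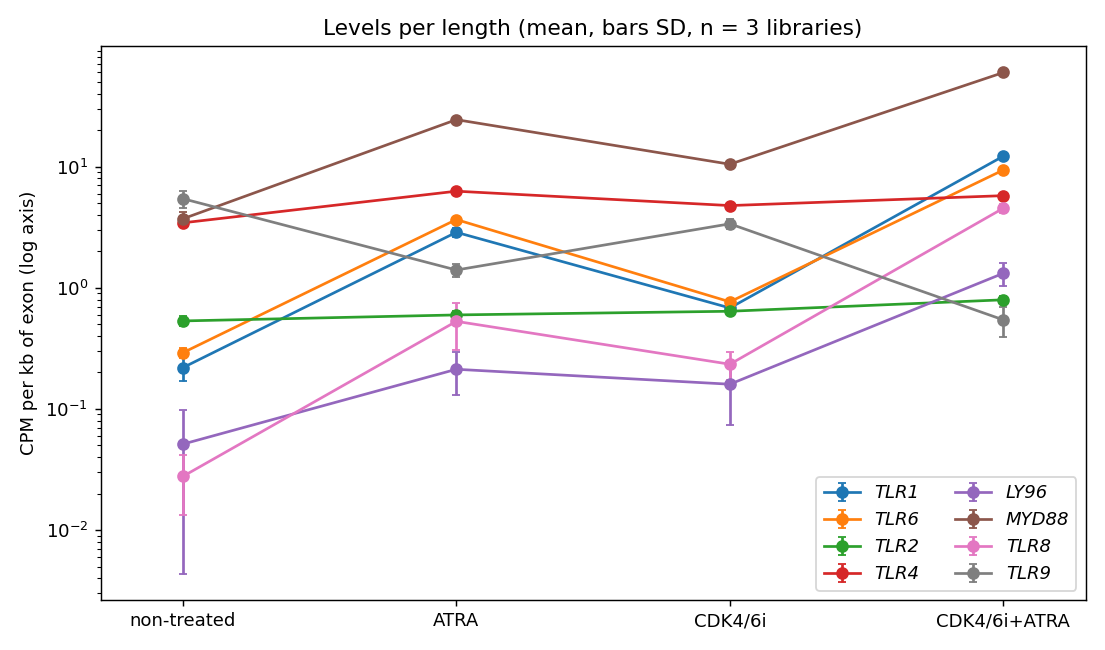
Levels per length (y axis, TMM-normalized CPM per kb of exon, log scale) of the 8 tested genes in the 4 groups, as means with SD bars over 3 libraries. TLR9 goes from the highest level in non-treated cells (5.44) to the lowest under CDK4/6i+ATRA (0.543), while TLR1 and TLR6 reach 12.2 and 9.39 there.

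Summed over the 7 receptors, the level was 9.95 ± 0.771 CPM per kb (SD, n = 3) in non-treated cells, 15.3 ± 0.500 under ATRA, 10.5 ± 0.318 under CDK4/6i and 33.3 ± 0.775 under CDK4/6i+ATRA. TLR9 made up 54.4% ± 4.56 of this sum in non-treated cells, 9.14% ± 0.985 under ATRA, 32.2% ± 2.00 under CDK4/6i and 1.63% ± 0.425 under CDK4/6i+ATRA. The share of TLR1 was 2.21% ± 0.535 in non-treated cells, 18.7% ± 0.908 under ATRA, 6.52% ± 0.710 under CDK4/6i and 36.7% ± 0.862 under CDK4/6i+ATRA. TLR4 held the largest share in the cells given a single drug, at 41.0% ± 1.98 under ATRA and 45.6% ± 2.15 under CDK4/6i, and 17.3% ± 0.797 with both drugs. The share of TLR8 reached 13.6% ± 0.837 under CDK4/6i+ATRA, from 0.278% ± 0.136 in non-treated cells. These sums and shares rest on the same exon lengths.

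Adding ATRA to CDK4/6i raised 7 of the 8 tested genes and lowered TLR9, against 78.6% of all genes called (39.1% higher, 39.5% lower), or 6 of 7 without LY96, which did not pass the filter with only CDK4/6i and non-treated cells, and the libraries of all 8 genes did not overlap in these directions (nor did those of 39% of all genes upward and 39.9% downward). The log2 fold changes were 4.16 for TLR1 (SE 0.0925), 3.62 for TLR6 (SE 0.0916), 4.29 for TLR8 (SE 0.259), 3.05 for LY96 (SE 0.426) and 2.52 for MYD88 (SE 0.0561), and TLR9 fell by 2.63 (SE 0.223), all with edgeR adjusted p of 9.59e-10 or less. TLR4 changed by 0.27 (SE 0.0510, edgeR adjusted p = 4.84e-06), but by -0.0058 (0.921) when the counts were scaled by library size alone. That scaling moved the median of all genes from 0.0014 to -0.276, and relative to this median the TLR4 difference was 0.271 under TMM and 0.270 under library size. A change of scaling moves all genes nearly alike, so this relative value cannot test the call. TLR2 changed by 0.31 (SE 0.130, edgeR adjusted p = 0.0254), and its call was lost under library size (0.037, 0.8), without a filter (0.214, 0.232) and without CDK4/6i replicate 3 (0.27, 0.09), CDK4/6i+ATRA replicate 1 (0.28, 0.0767) or CDK4/6i+ATRA replicate 3 (0.27, 0.0908).

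Adding CDK4/6i to ATRA raised 6 of the 8 tested genes and lowered TLR4 and TLR9, against 69.8% of all genes called (36.9% higher, 32.8% lower), or 5 of 7 without LY96, which did not pass with only ATRA and non-treated cells, again without overlap of libraries (as for 37.9% of all genes upward and 33.9% downward). TLR8 rose most, with a log2 fold change of 3.10 (SE 0.199, edgeR adjusted p = 1.16e-20), followed among the rises by LY96 at 2.63 (SE 0.394, 1.72e-08), TLR1 at 2.09 (SE 0.0642, 1.52e-32), TLR6 at 1.36 (SE 0.0643, 1.55e-24) and MYD88 at 1.29 (SE 0.0492, 2.17e-28). TLR9 fell by 1.37 (SE 0.236, edgeR adjusted p = 3.6e-07). TLR2 rose by 0.41 (SE 0.131, edgeR adjusted p = 0.00488), a call that was lost under library size (0.107, 0.472) and without a filter (0.320, 0.0559). TLR4 fell by 0.12 (SE 0.0497, edgeR adjusted p = 0.0269), a call that was lost without ATRA replicate 2 (-0.12, 0.0628), ATRA replicate 3 (-0.12, 0.051) or CDK4/6i+ATRA replicate 1 (-0.096, 0.125), while the value was -0.43 under library size (edgeR adjusted p = 1.58e-09).

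The interaction compares the log2 effect of ATRA in the presence of CDK4/6i with its effect in the absence of CDK4/6i, and a value of 0 means that the 2 drugs added on the log2 scale. Of the 8 tested genes, 1 was called higher and 2 lower than the sum, against 51.4% of all genes (24.5% higher, 27% lower). TLR4 fell short of the sum of the single-drug effects, with an interaction of -0.59 (SE 0.0719, edgeR adjusted p = 8.12e-10), values of -0.62 to -0.57 when each library was left out in turn and a value of -0.91 under library size. TLR9 was also below the sum, at -0.67 (SE 0.262, edgeR adjusted p = 0.0243), but this call was lost without non-treated replicate 2 (-0.56, 0.0593), ATRA replicate 2 (-0.62, 0.0552), CDK4/6i replicate 2 (-0.61, 0.0525), CDK4/6i+ATRA replicate 2 (-0.54, 0.113) or CDK4/6i+ATRA replicate 3 (-0.61, 0.0757). TLR1 exceeded the sum by 0.44 (SE 0.177, edgeR adjusted p = 0.0376), a call lost without non-treated replicate 1 (0.31, 0.24), non-treated replicate 2 (0.37, 0.153), ATRA replicate 2 (0.42, 0.059), ATRA replicate 3 (0.39, 0.0765), CDK4/6i replicate 2 (0.44, 0.0537), CDK4/6i replicate 3 (0.37, 0.101) or CDK4/6i+ATRA replicate 3 (0.42, 0.0568), under library size (0.125, 0.582) and without a filter (0.358, 0.194).

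For the other genes a departure from additivity was not called. TLR6 had an interaction of -0.026 (95% interval -0.355 to 0.303, edgeR adjusted p = 0.906) and MYD88 one of -0.21 (-0.397 to -0.0137, 0.0657). MYD88 was called under DESeq2's size factors (-0.23, edgeR adjusted p = 0.0426), library size alone (-0.52, 1.69e-05), no filter (-0.29, 0.0215) and without non-treated replicate 2 (-0.30, 0.0129). The intervals of TLR2 (0.15, -0.225 to 0.519), TLR8 (0.11, -1.38 to 1.59) and LY96 (1.09, -0.548 to 2.72) were wide, that of LY96 went from 0.35 without non-treated replicate 3 to 1.64 without non-treated replicate 1, and under library size the values of TLR2 and TLR8 were -0.171 and -0.212. That scaling moved the median interaction of all genes from -0.022 to -0.341, and relative to this median the interactions hardly moved, with 0.169 under TMM and 0.170 under library size for TLR2, 0.130 and 0.128 for TLR8, -0.184 and -0.183 for MYD88, 0.466 and 0.466 for TLR1 and -0.573 and -0.573 for TLR4. Because a change of scaling moves all genes nearly alike, these relative values cannot differ much and do not test the signs or calls.

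**Figure D4:**
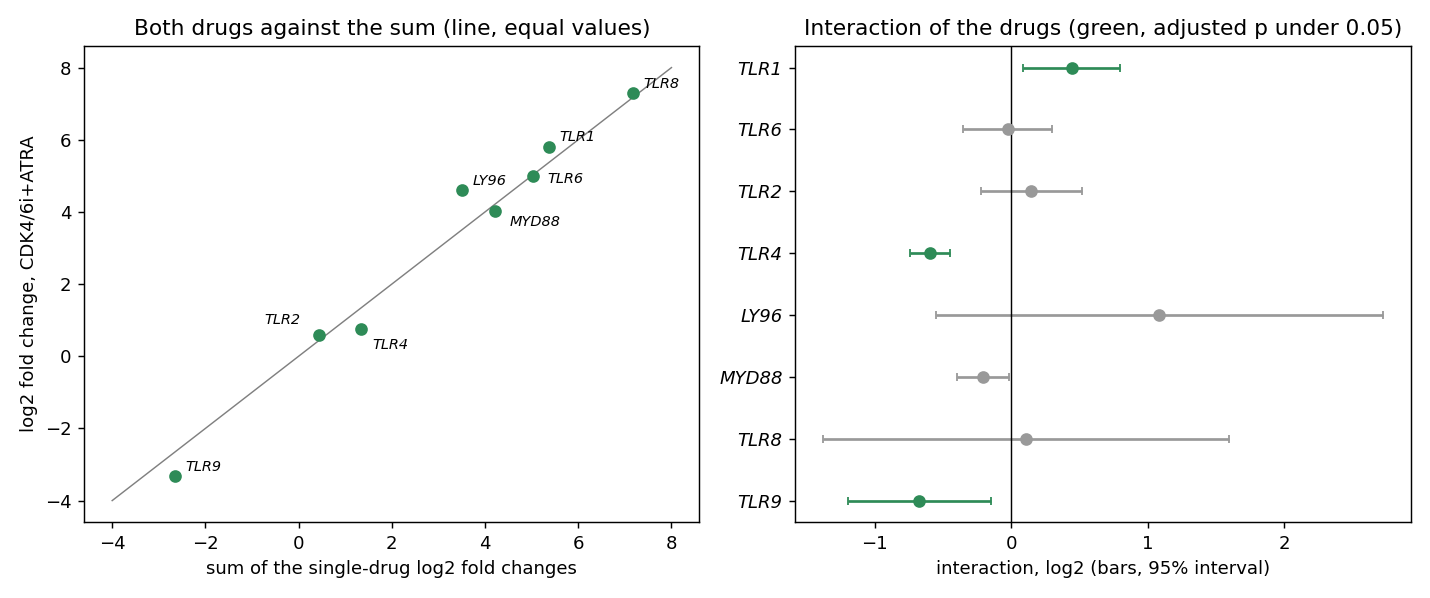
Left, the log2 fold change under CDK4/6i+ATRA (y axis) against the summed log2 fold changes of the single drugs (x axis) for the 8 tested genes, with a line of equal values. Right, the interaction (x axis, log2) with 95% intervals as bars, where TLR1 (0.44), TLR4 (-0.59) and TLR9 (-0.67) are called.

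The genes around the receptors were taken from 11 lists of the Toll pathway, whose counts are to be read against the shares of all genes tested: 41% higher and 40.7% lower under CDK4/6i+ATRA, 32.1% and 35.5% under ATRA, and 28.3% and 27.9% under CDK4/6i. Genes that did not pass the filter in non-treated libraries alone were tested through other groups. The counts without them are given beside each list. Among the 11455 genes that passed in non-treated libraries, 38.1% were higher and 46.3% lower under CDK4/6i+ATRA. The shares were 30% and 40.7% under ATRA and 29.6% and 32% under CDK4/6i. Among 9 co-receptors and proteins that handle lipopolysaccharide, 5 passed the filter and all 5 were higher under CDK4/6i+ATRA than in non-treated cells (median log2 fold change 5.99, against 0.02 for all genes), as they were under ATRA, and 3 were higher under CDK4/6i (all genes: 41%, 32.1% and 28.3% higher). Without CD36, which did not pass in non-treated libraries, 4 of 4 were higher under CDK4/6i+ATRA (median 4.83). Of the same 4 genes, 4 were higher under ATRA and 3 under CDK4/6i. ITGAM, 1 of the 6 myeloid maturation genes above, is among the 5 tested, and its value of 5.99 is their median. CD300LB, an activating receptor of myeloid cells that the table also lists on an alternate contig, was 4.81 CPM in non-treated cells, 158 under ATRA, 4.63 under CDK4/6i and 635 under CDK4/6i+ATRA. CD36, a scavenger receptor that assists TLR2 with TLR6, had no count in non-treated or CDK4/6i-treated cells and averaged 5.19 CPM under ATRA and 26.1 CPM under CDK4/6i+ATRA, at least 29.0-fold and 145.7-fold higher against a limit of 3 counts per library.

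Of 10 genes listed under receptor chaperones and traffic, 4 were higher and 5 lower under CDK4/6i+ATRA (median -0.28), against 41% and 40.7% of all genes, and without SLC15A3, which did not pass in non-treated libraries, 3 of 9 were higher and 5 lower. The ER chaperone HSP90B1 (gp96), which most Toll-like receptors need to fold, was 665 CPM in non-treated cells, 307 under ATRA, 757 under CDK4/6i (log2 fold change 0.19, edgeR adjusted p = 6.56e-05) and 113 under CDK4/6i+ATRA (-2.56, 5.94e-43). UNC93B1, which escorts the endosomal receptors, was 233 and 67.9 CPM (-1.77, 1.34e-36). RAB7B, a small GTPase of late endosomes, moved in opposite directions with the single drugs, from 30.1 CPM to 11.7 under ATRA and 66.1 under CDK4/6i, and reached 88.5 under CDK4/6i+ATRA (1.56, 4.15e-27). The HSP90B1 partner CNPY3 rose by 0.50 (edgeR adjusted p = 1.04e-14). Among 6 endosomal proteases, 5 were tested and all 5 were higher under CDK4/6i+ATRA (median 1.49, against 41% of all genes higher), or 3 of 3 without CTSK and CTSH, which did not pass in non-treated libraries, including CTSS (78.5 to 210.5 CPM, 1.42) and CTSL (7.02 to 19.6 CPM, 1.49).

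Of 6 further adaptors, 4 were tested and 3 were higher under CDK4/6i+ATRA (median 1.28, against 41% of all genes higher), or 3 of 3 without SARM1, which did not pass in non-treated libraries. TICAM1 (TRIF), the adaptor of TLR3 and of internalised TLR4, was 3.66 CPM in non-treated cells and 19.7 under CDK4/6i+ATRA (2.43, edgeR adjusted p = 7.95e-23), and TIRAP, which brings MYD88 to TLR2 and TLR4, was 8.17 and 34.2 CPM (2.06, 7.89e-25). In the module of IRAK kinases, TRAF6 and TAK1, 10 of 16 genes were higher and 4 lower under CDK4/6i+ATRA (median 0.67, against 41% and 40.7% of all genes), and under CDK4/6i alone 6 were lower and 10 were not called (27.9% of all genes lower). Without IRAK2, which did not pass in non-treated libraries, 9 of 15 were higher and 4 lower under CDK4/6i+ATRA, and 6 were lower under CDK4/6i. IRAK2 averaged 0.0789 CPM in non-treated cells, 2.48 under ATRA, 0.126 under CDK4/6i and 20.7 under CDK4/6i+ATRA, and PELI3, an E3 ligase that acts on IRAK kinases, rose from 2.96 to 25.3 CPM (3.09, 9.52e-25). TIFA, a TRAF-binding protein, fell from 21.6 to 2.82 CPM (-2.93, 6.47e-25) and TAB1, a subunit of the TAK1 complex, from 38.8 to 19.5 CPM (-1.0, 4.21e-16).

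All 8 genes of the IKK and TBK1 kinase group were higher under CDK4/6i+ATRA (median 0.83, against 41% of all genes), 5 were higher under ATRA (32.1%), and under CDK4/6i 2 were higher and 1 lower (28.3% and 27.9%). All 8 passed in non-treated libraries. The largest changes were those of the scaffold proteins TANK (26.5 to 181 CPM, 2.78, edgeR adjusted p = 2.51e-42) and TBKBP1 (30.7 to 107 CPM, 1.80, 4.16e-29). Of 5 interferon regulatory factors, 4 were tested, with 2 higher and 1 lower under CDK4/6i+ATRA (median 1.38, against 41% and 40.7% of all genes), or 1 and 1 of 3 (median 0.047) without IRF7, which did not pass in non-treated libraries. IRF1 rose from 10.9 CPM to 75.7 under ATRA and 72.2 under CDK4/6i+ATRA (2.72, edgeR adjusted p = 4.87e-34), and was 10.5 CPM under CDK4/6i.

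Of 18 genes known to restrain Toll signalling, 17 were tested, with 14 higher and 1 lower under CDK4/6i+ATRA (median 1.36), 14 and 2 under ATRA, and 12 and 2 under CDK4/6i, against 41%, 32.1% and 28.3% of all genes higher. Without LILRB2 and NFKBIZ, which did not pass in non-treated libraries, 12 of 15 were higher and 1 lower under CDK4/6i+ATRA. Of these 15, 12 were higher and 2 lower under ATRA, as under CDK4/6i. CD300A, an inhibitory receptor also listed on an alternate contig, rose from 5.29 to 446 CPM (6.39, edgeR adjusted p = 4.48e-52), and NFKBIA, the NF-κB inhibitor IκBα, from 21.3 to 125 CPM (2.56, 1.1e-37). IRAK3 (IRAK-M), a pseudokinase of monocytes and macrophages, fell from 79.0 to 55.9 CPM (-0.50, 4.75e-12). Among 15 genes commonly induced through Toll-like receptors, 6 were tested and 5 were higher under CDK4/6i+ATRA (median 6.91, against 41% of all genes higher), or 3 of 3 without TNF, IL10 and ICAM1, which did not pass in non-treated libraries. ICAM1, an adhesion ligand, was 0.576 CPM in non-treated cells, 159.9 under ATRA, 2.87 under CDK4/6i and 1063 under CDK4/6i+ATRA. IL1B, which encodes interleukin-1β, was 4.31, 62.3, 14.0 and 1451 CPM in the same order.

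**Figure D5:**
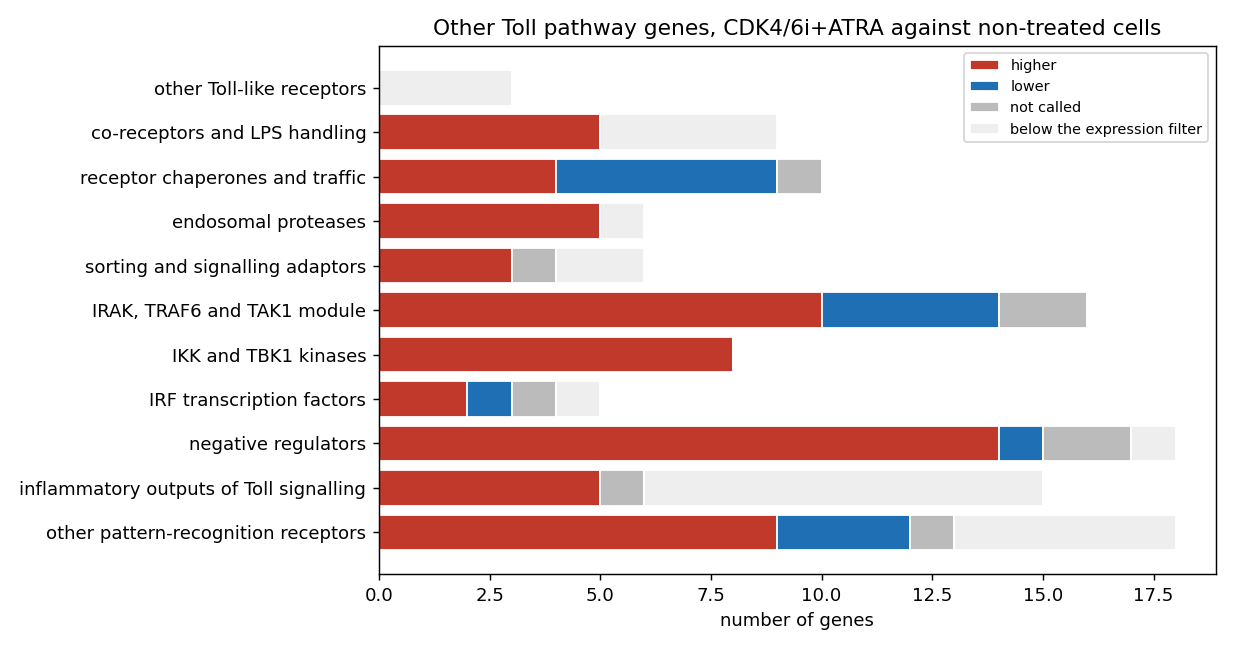
Number of genes (x axis) in each of the 11 lists of the Toll pathway that were called higher, called lower, not called or below the expression filter under CDK4/6i+ATRA against the non-treated group. Higher calls fill the tested part of 3 lists (co-receptors, endosomal proteases, and IKK and TBK1 kinases), and the chaperone list has 5 lower calls against 4 higher.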

How the data were processed

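RNA-Seq of HL60 cells (3 libraries in each of 4 groups) was analysed from the deposited table. The authors trimmed reads (Trimmomatic 0.33 per the submitters' processing notes), aligned them to hg38 with STAR 2.7.11a under the NCBI RefSeq annotation, and deposited whole-number raw counts per gene without normalization; the study names RSEM, whereas the table has the column layout of featureCounts, and whether reads were counted by strand is not given in the sources used here. Reads that fall on alternate contigs could be lost to a gene, and none of the 10 genes is listed there.

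The counts were filtered with filterByExpr on the 4 groups (13318 genes kept), TMM-normalized (factors 0.840 to 1.07) and tested with the quasi-likelihood F test of edgeR 4.0.16 (R 4.3.3) on a model of the 4 groups, with 8 residual degrees of freedom, for 5 comparisons and the interaction. P-values were adjusted by Benjamini-Hochberg over all genes tested, and the common biological coefficient of variation was 3.70%. Two-sided exact permutation tests of 3 against 3 libraries cannot give a p below 0.1, so they describe overlap only. Standard errors are on the log2 scale from the fitted dispersions. Levels of different genes were compared per kb of the deposited exon length. Pooled count ratios have exact 95% intervals. Libraries of 1 group differed by more than sampling noise (chi-square per degree of freedom 1.83 to 6.49).

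The members, the lists and the tests were chosen with earlier results of these data known. Named are all 10 genes; of 11 hand-made lists, up to 2 of the largest rises and 2 of the largest falls with CDK4/6i+ATRA among called genes with a mean of at least 5 CPM; the other Toll-like receptors; genes that overlap a member; and, for each tested member, the 3 genes with the most similar pattern. A monocyte marker and a gene with a pattern like TLR8 are not reported here. Genes from marker lists named beside CD14 or MPO, and ITGAM beside the co-receptors, fall outside this rule. So do genes named for not passing the filter in non-treated libraries. All of these were chosen after their values were seen. Promoters came from RefSeq (GRCh38.p14). Alternatives were scaling by library size alone or by DESeq2's size factors, no filter or a minimum of 10 counts in every library, a fit of only the groups compared, a block for the replicate number, DESeq2 1.42.0 and leaving out each library. Figures were drawn with matplotlib 3.10.9.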

Additional observations from a re-analysis of the deposited data

Results flagged for a closer look

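In 3 of the 8 tested genes (51.4% of all genes tested) the effect of ATRA differed between cells with and without CDK4/6i, by the interaction test of edgeR (quasi-likelihood, Benjamini-Hochberg). TLR4 had an interaction of -0.59 on the log2 scale (adjusted p = 8.12e-10): ATRA raised it by 0.87 in cells without CDK4/6i and by 0.27 in cells with it, although under library size alone the latter value was -0.0058. TLR9 had an interaction of -0.67 (adjusted p = 0.0243), since ATRA lowered it by 1.96 without and by 2.63 with CDK4/6i. TLR1 had an interaction of 0.44 (adjusted p = 0.0376), from a rise of 3.71 without and of 4.16 with CDK4/6i. The TLR4 call held with any 1 library left out, and the calls of TLR9 and TLR1 did not. All 3 comparisons share the same 12 libraries.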

How the results depend on the processing

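Over the alternatives that kept all libraries, 302 log2 values of the tested members kept their direction and side of the threshold, 6 lost a call, 3 gained one and 3 changed sign, of which 1 (TLR4) also lost its call, so that 7 calls were lost in all; with 1 library left out these numbers were 549, 22, 1 and 4, and each lost or gained call stands beside its value above. Scaling by library size alone shifted the median of all genes by CDK4/6i+ATRA from 0.018 to -0.247 against non-treated cells, from 0.0014 to -0.276 against CDK4/6i, from 0.044 to -0.261 against ATRA and from -0.022 to -0.341 for the interaction; the share of higher among called genes went from 50.2% to 40.5%, from 49.8% to 36.7%, from 53% to 31.6% and from 47.5% to 18.5% (37.9% without a filter for the interaction). Under library size, TLR4 under CDK4/6i+ATRA against CDK4/6i (-0.0058) and the interactions of TLR2 (-0.171) and TLR8 (-0.212) changed sign, whereas relative to the median of all genes they kept theirs (0.270, 0.170 and 0.128). The relative values would stay under any such change of scaling, so they do not test these signs. The adjusted p over the alternatives that keep all libraries ranged from 7.4e-07 to 0.921 for this TLR4 value, from 0.014 to 0.8 for TLR2 against CDK4/6i, from 0.00409 to 0.472 for TLR2 against ATRA, from 0.0324 to 0.582 for the TLR1 interaction and from 1.69e-05 to 0.0741 for that of MYD88. With 1 library left out, the TLR8 interaction ranged from -0.290 to 0.446 and that of TLR6 from -0.108 to 0.021; the number of members called ranged from 1 to 3 for the interaction (1 without ATRA replicate 2, CDK4/6i replicate 2 or CDK4/6i+ATRA replicate 3), 6 to 7 under CDK4/6i, 7 to 8 for CDK4/6i+ATRA against either drug, and stayed at 7 under ATRA and 8 under CDK4/6i+ATRA against non-treated cells, while 47.4% to 49% of all genes were called for the interaction, 51.1% to 55.8% under CDK4/6i, 74.6% to 77.9% and 65% to 68.9% against CDK4/6i and ATRA, 62.9% to 67.1% under ATRA and 78.1% to 81.1% under CDK4/6i+ATRA. Replicate numbers did not pair the libraries: the deviations of 18 same-numbered pairs correlated at -0.183 to 0.110, and 1 of 12 libraries correlated best with its own number. With the replicate number as a block, 8915, 7392, 10824, 10416, 9213 and 6775 genes were called in the 6 comparisons (9006, 7482, 10885, 10473, 9291 and 6852 without it), and no call on a member changed. Counts of 8 or fewer in a group, as for CD14, TLR5 and non-treated LY96 and TLR8, limit those values. TLR8 and LY96 gave no value with at least 10 counts in every library, which they do not reach, LY96 none with non-treated cells and only ATRA or only CDK4/6i fitted, where it did not pass the filter, and the interaction none with only the groups compared.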

Other observations

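Of 18 pattern-recognition receptors outside the Toll family, 13 were tested, and 9 were higher and 3 lower under CDK4/6i+ATRA than in non-treated cells (median log2 fold change 1.74, against 0.02 for all genes), 11 were higher under ATRA, and under CDK4/6i 5 were higher and 4 lower. Of all genes tested, 41% were higher and 40.7% lower under CDK4/6i+ATRA, 32.1% were higher under ATRA, and 28.3% were higher and 27.9% lower under CDK4/6i. Without AIM2, CLEC7A and TREM1, which did not pass the filter in non-treated libraries alone, 6 of 10 were higher and 3 lower under CDK4/6i+ATRA (median 1.51). Of the same 10, 8 were higher under ATRA, and under CDK4/6i 3 were higher and 4 lower. AIM2, a cytosolic DNA sensor, averaged 0.178 CPM in non-treated cells, 16.4 under ATRA, 1.44 under CDK4/6i and 56.1 under CDK4/6i+ATRA. TREM1, a surface receptor that amplifies Toll signalling, averaged 0.263, 15.3, 0.238 and 27.2 CPM in the same order. The cytosolic peptidoglycan sensor NOD1 fell from 14.6 to 6.60 CPM (-1.15, edgeR adjusted p = 2.27e-11), and NLRP3, an inflammasome sensor also listed on an alternate contig, from 14.5 to 8.86 CPM (-0.72, 1.35e-07), although it was higher under ATRA alone (17.8 CPM, 0.29, 0.00511).

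Among the genes with a mean of at least 5 CPM, those with the most similar pattern over the 12 libraries (Pearson's r of log2(CPM + 1), given without a test since the libraries fall into 4 groups and share their depths) were PGD, STXBP2 and AP1S2 for TLR1 (r of 0.998 each), AKAP13, IPCEF1 and PTPRJ for TLR6 (0.999, 0.999 and 0.999) and LRP10, SERPINB1 and MGAM for MYD88 (0.998, 0.998 and 0.998). RASSF4, CCNG2 and SUCNR1 were most like TLR4 (0.991, 0.991 and 0.990), SLC36A1 and FBRS were among those most like TLR8 (0.994 and 0.994), and PABPC4, MGA and POLR1G were most like TLR9 (0.992, 0.991 and 0.991). For TLR2 and LY96 the closest were APC2, RPS3AP5 and KLF9 (0.968, 0.954 and 0.952) and MNT, LMBR1L and RAB3C (0.989, 0.986 and 0.983).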
